A study of Oryza sativa with 12 samples.

Results

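SPX2 (LOC4328654) codes for a rice protein whose only known domain is the SPX domain, and it is read on the Affymetrix rice array by 1 probe set, Os.15304.1.A1_at. It is 1 of 17905 genes named on the array, and its probe set is 1 of 57194 that are not controls and 1 of the 28597 brighter ones that entered the fit. SPX2 was chosen by its signal on these arrays, which was low in the phr1 mutant, so its own levels, differences and ranks are given as a description, with no test. The arrays held RNA from phosphate-starved plants of 4 genotypes, with 3 arrays each. The wild type (WT) was Nipponbare, phr1 and phr3 were single mutants, and phr123 was the triple mutant in PHR1, PHR2 and PHR3. Every plant, WT included, had been grown in culture solution for 14 days with 200 µM phosphate and then for 7 days with 0 µM. The tissue field of the labels says leaf and the treatment protocol says shoot. Neither the mutant alleles nor the cultivar of the mutants is given in the sources used here. The repeats are called biological, but whether each was 1 plant or a pool is not stated, so the p-values below measure the spread between these samples. Phosphate-fed plants and plants lacking PHR2 alone were not analysed here.

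SPX domains bind inositol pyrophosphates, signalling molecules whose level follows the phosphate status of the cell. In rice, SPX1 and SPX2 are nuclear proteins that, when phosphate is plentiful, hold PHR2 away from its target promoters, and so act as brakes on the starvation response. The PHR proteins, MYB-type DNA-binding factors, turn on starvation genes, SPX genes among them. The brakes are thus among the targets of the factors that they restrain.

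The 12 arrays had been scaled to 1 trimmed mean, 500.1 on each array, and their median signals lay between 56.6 and 85.6. Across probe sets, r was 0.948 to 0.963 in 12 pairs of arrays of 1 genotype and 0.848 to 0.955 in 54 pairs from 2 genotypes. As a level for signal that no rice transcript should give, the 95th percentile of reporter control probe sets was taken on each array; it lay between 48.4 and 87.6. The summed signal of 8 leaf markers, light-harvesting, Rubisco and photosystem genes, ran from 492550 to 503180 in WT, 440650 to 509630 in phr3, 496970 to 529640 in phr1 and 330190 to 388900 in phr123. For 4 root markers the sums were 1734.1 to 1947.1 in WT, 1572.9 to 1948.3 in phr3, 1814.8 to 1836 in phr1 and 1182.7 to 1629.9 in phr123, and no marker of either list was at 0 on all arrays of a genotype. For 6 markers of dividing tissue they were 1236.6 to 1430.9 in WT, 684.5 to 806.2 in phr3, 1600.5 to 1642.2 in phr1 and 659.3 to 930.1 in phr123. On all 3 phr123 arrays, 1 leaf marker and 3 markers of dividing tissue lay at or below the reporter level. So did 1 marker of dividing tissue on all 3 phr1 arrays and 1 root marker on all arrays of every genotype. RNA quality was read from the GAPDH control, as the log2 ratio of its 3' to its 5' probe set. The ratio (mean ± SD, n = 3) was 2.35 ± 0.144 in WT, 2.05 ± 0.608 in phr3, 2.20 ± 0.358 in phr1 and 1.69 ± 0.135 in phr123. The part of these shifts in the results below was not tested. In RNA from leaf or shoot tissue of many cell types, fewer cells of a type and less RNA per cell cannot be told apart.

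The mutated genes were read first. PHR1 had signals of 876.9, 1096.2 and 1153.8 in WT, 404.3, 514.2 and 559.5 in phr1, 1203.6, 1147.9 and 1134.9 in phr3, and 569.1, 753 and 810.6 in phr123. All phr1 and phr123 arrays lay under all WT arrays, and all phr1 arrays lay under all phr123 arrays. PHR1 fell in phr1 (log2 difference -1.08, limma adjusted p = 0.00382) and in phr123 (-0.56, adjusted p = 0.0116). The second call ended without WT replicate 3 (adjusted p = 0.0545), without phr123 replicate 1 (0.0561) and with arrays centred on their medians (0.0802). PHR1 was higher in phr123 than in phr1 (log2 difference 0.53, limma adjusted p = 0.0159). That call was lost without phr1 replicate 1 (0.0727), phr123 replicate 2 (0.0575) or phr123 replicate 3 (0.0734). PHR2 had a mean of 1865 in WT and lay under the reporter level on all phr123 arrays, at least 28.7-fold lower (adjusted p = 3.21e-10). PHR3 had 439.4 ± 45.8 in WT and 90.4 ± 30.8 in phr3 (mean ± SD, n = 3). On the array labelled phr123 replicate 1 it had 1186.6, against 172.6 and 118.3 on the other arrays of that genotype, so the SPX2 values and the counts of phosphate genes in phr123 are also given without it. Without that array PHR3 passed as a fall in phr123 (log2 difference -1.62, limma adjusted p = 0.000455) and in phr3 (-2.34, adjusted p = 0.000164), and with it neither passed (adjusted p = 0.469 and 0.0713). Where the probes lie relative to each lesion is not known here, and a probe set outside the disrupted part checks nothing.

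SPX2 fell apart into a high and a low pair of genotypes. Its signals were 14335, 12261.6 and 11642.8 in the WT arrays and 15031.2, 11559.1 and 12129.8 in the phr3 arrays. They were 1966.6, 2058.5 and 1952.6 in the phr1 arrays, and 2085.3, 1623.5 and 1960.3 in the phr123 arrays. WT and phr3 overlapped, phr1 and phr123 overlapped, and between these pairs there was a wide gap that no array entered. The mean and SD over 3 arrays were 12746.5 ± 1410 in WT, 12906.7 ± 1862 in phr3, 1992.6 ± 57.5 in phr1 and 1889.7 ± 239 in phr123. Ordered by mean the genotypes ran phr3, WT, phr1, phr123, and in that order only the step from WT to phr1 exceeded the spread between arrays.

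**Figure D1:**
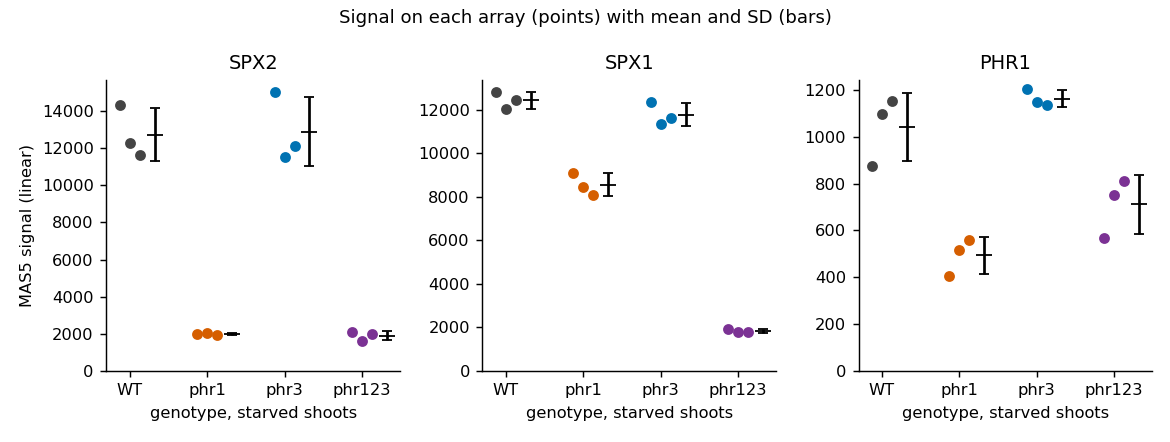
Each panel plots the MAS5 signal (linear axis from 0) of 1 gene on the 12 arrays as points, by genotype, with the mean and SD over 3 arrays as bars. SPX2 had about the same signal in phr1 and phr123 (means 1992.6 and 1889.7), SPX1 lay far lower in phr123 than in phr1 (means 1838 and 8548), and PHR1 was lower in phr1 and phr123 than in WT.

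As a share of the WT mean (mean ± SD, n = 3), SPX2 stood at 15.6% ± 0.451 in phr1, 101% ± 14.6 in phr3 and 14.8% ± 1.87 in phr123. The low state was not the floor of the array. On the 6 phr1 and phr123 arrays the SPX2 signal was between 22.45 and 38.05 times the reporter level of the same array, and on the 6 others between 182.8 and 310.6 times. The phr1 arrays had the smallest spread, with a coefficient of variation of 2.89% against 11.1% in WT, 14.4% in phr3 and 12.6% in phr123. With 3 arrays a genotype, the difference between these coefficients was not tested.

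On the log2 scale SPX2 differed from WT by -2.67 in phr1 (95% interval -2.93 to -2.42), a 6.37-fold lower level. In phr123 it differed by -2.76 (interval -3.01 to -2.50), 6.76-fold lower. Both intervals come from the same residual spread, with a standard error of 0.118 for each difference. In phr3 the difference was 0.01, with an interval from -0.24 to 0.27. The data thus leave room for a shift of SPX2 in phr3 of about that width in either direction, far less than the distance between WT and phr1.

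The triple mutant and phr1 differed in SPX2 by -0.08, with an interval from -0.34 to 0.17 on the log2 scale. Of all 28597 probe sets, 10.1% had a smaller absolute difference between these genotypes, while 42.8% passed the test in one direction or the other. Without phr123 replicate 1 the difference was -0.16, and without phr123 replicate 2 it was 0.02. With each array centred on its median it was 0.21, so its sign depends on the scaling. The phr123 difference from WT came to -0.10 relative to the phr1 and phr3 differences added together, less than the residual SD of 0.16. Without phr123 replicate 1 the phr123 difference from WT was -2.83.

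Among all 28597 probe sets, SPX2 had rank 10 from the lowest by its phr1 difference from WT, so that 0.0315% of probe sets had a lower value. In phr3 its rank was 14424, the middle of the distribution, and in phr123 it was 530, with 1.85% of probe sets lower (rank 553 without phr123 replicate 1). The size of the SPX2 difference was about the same in phr1 and phr123, but the distributions were not: 33 probe sets had a fall of at least 4-fold in phr1 and 1086 did in phr123. The phr1 rank was 26, 21 and 25 when phr1 replicate 1, 2 or 3 was left out. Rank 2 was reached with a pseudocount of 16 and among the brightest 25% of probe sets, and rank 461 with dim probe sets kept. The SPX2 difference itself ran from -2.73 to -2.58 when any 1 array was left out.

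**Figure D2:**
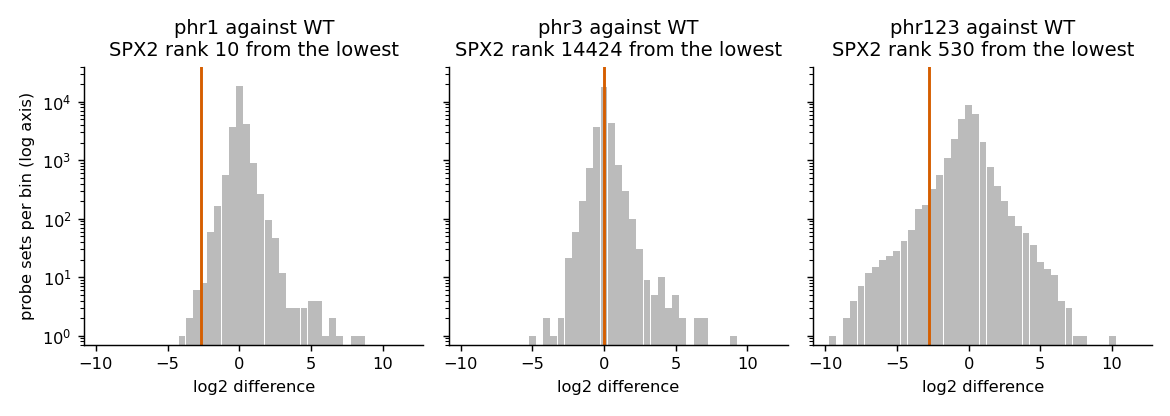
Grey bars count the 28597 probe sets by their log2 difference from WT (log axis for counts), in phr1, phr3 and phr123, and the vertical line marks SPX2. The line stands in the thin lower tail in phr1 (-2.67, rank 10), at the centre in phr3 (0.01) and inside a broad lower tail in phr123 (-2.76, rank 530).

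Lower values than SPX2 in phr1 were found for 9 probe sets. Of these, 7 did not pass the test in phr1 (limma adjusted p from 0.071 to 0.61). They were dim in WT and phr1, with WT means from 34.67 to 190.9 and phr1 means from 2.367 to 31.2, so that their sizes are uncertain. LOC4329194 (113.9 in WT, 31.2 in phr1) and LOC4326803 (190.9 and 28.43) are examples. At ranks 1 and 2, LOC4340325 and LOC4326189 were bright in phr3 (means 2108 and 6082) and phr123 (2324 and 5807), and passed the filter through these genotypes. Their WT and phr1 arrays all lay at or below the reporter level, so a fall in phr1 could not be measured. The other 2 of the 9 passed. Os.11833.1.S1_at, which the array annotation leaves without a gene, had a mean of 1124 in WT and 168 in phr1, a difference of -2.82 (limma adjusted p = 3e-05). Its phr3 difference from WT was 0.06, so in the single mutants it shifted much as SPX2 did. LOC4333762 had 83.77 in WT and 11.73 in phr1, and its phr1 arrays all lay under the reporter level, so that it was at least 1.06-fold lower (adjusted p = 0.018). In phr123 these 2 probe sets differed from WT by 0.08 and -0.17, where SPX2 differed by -2.76.

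Just past SPX2 in the phr1 ranking came an unnamed probe set at -2.42 (rank 11) and LOC4347989 at -2.31 (rank 13), neither past the test. The next probe sets that passed were an unnamed one, Os.52360.1.S1_at, at -2.15, another at -1.96, LOC4339718 at -1.85 and SPX3 at -1.67. In the phr123 ranking the probe set of SPX1 stood beside that of SPX2, at rank 528 with -2.76. The genes directly next to SPX2 there, LOC4326549 and LOC4342683, had phr1 differences from WT of -0.22 and 0.04, far from the -2.67 of SPX2. In the phr3 ranking the neighbours of SPX2 all had differences of 0.01, and none of them is described further.

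SPX1, the closest relative by role, gave a within-array yardstick that needs no scaling between arrays. Its signals were 12831.5, 12048.7 and 12432 in WT, 9118.6, 8446.7 and 8077.5 in phr1, 12349.9, 11338.5 and 11636.8 in phr3, and 1939.9, 1783.9 and 1790.1 in phr123. The phr1 arrays of SPX1 lay between those of WT and phr123 and overlapped neither. The log2 ratio of SPX2 to SPX1 on the same array, relative to its WT mean, was 0.00 ± 0.127 in WT and 0.09 ± 0.139 in phr3 (mean ± SD, n = 3). It was -2.13 ± 0.0986 in phr1, from -2.24 to -2.07, and 0.00 ± 0.147 in phr123, from -0.17 to 0.10, a range set by phr123 replicates 2 and 3. The probe sets of SPX1 and SPX2 thus shifted by about the same factor in the triple mutant and by very different factors in phr1. A ratio within an array shows unequal change and does not say which gene moved.

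SPX1, SPX3, PT4, PT8, MGD2 and MGD3 fell in phr1, the only 6 of 17 measured phosphate genes besides SPX2 and the PHR genes that passed the limma test, and 0 rose. By the same adjusted test 0.486% of all probe sets fell and 0.448% rose in phr1. At an unadjusted p under 0.05, 8 of the 17 were lower and 0 higher, but the share of all probe sets at that threshold was not counted. The median difference of the 17 genes was -0.45, against 0.01 over all probe sets. The genes that fell had smaller differences than SPX2. SPX1 had -0.54 (SE 0.0735, limma adjusted p = 0.00212), and SPX3, whose protein is another small SPX regulator, had -1.67 (SE 0.275, adjusted p = 0.00897). Among genes for PHT1 transporters, which carry phosphate into cells, PT4 had -0.72 (adjusted p = 0.0059) and PT8 had -0.53 (adjusted p = 0.0163), where the dimmer probe set of PT8 had -0.44 (adjusted p = 0.251). MGD2 and MGD3 make galactolipids that replace membrane phospholipids under starvation, and had -0.70 (adjusted p = 0.0321) and -0.57 (adjusted p = 0.00653). SPX5 had 1586 ± 351 in phr1 and 2826 ± 237 in WT (mean ± SD, n = 3), with limma adjusted p = 0.684, though all its phr1 arrays lay under all WT arrays. Its SE of 0.598 pools the spread of all genotypes, among them phr123 with signals of 4.9, 45.7 and 44.8.

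Some of these calls rested on single arrays. That of SPX3 in phr1 ended without WT replicate 1 (limma adjusted p = 0.0542), without phr1 replicate 2 (0.0559) and without the mean-variance trend (0.0574). For PT8 the call was lost when WT replicate 1 or 3, or phr1 replicate 1 or 2, was left out (adjusted p 0.0504 to 0.0836), and without the trend (0.0799). The MGD2 call ended when any single WT or phr1 array, or phr3 replicate 3, was left out, under quantile normalization and without the trend (adjusted p from 0.0519 to 0.138). SPX5 passed without phr123 replicate 1 (adjusted p = 0.00846) and when phr1 and WT were fitted on their own (0.0305). The calls of SPX1, PT4 and MGD3 held in every alternative run.

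In phr3, 1 of the 17 phosphate genes fell and 0 rose by limma's adjusted test, beside 0.731% and 1.26% of all probe sets. At an unadjusted p under 0.05, 3 were lower and 1 higher, with no share of all probe sets counted at that threshold. The gene that passed the adjusted test was SPX3, with 1414 ± 303 in WT and 617 ± 56.0 in phr3 (mean ± SD, n = 3, log2 difference -1.18, limma adjusted p = 0.044). That call ended when any single WT or phr3 array, or phr1 replicate 2, was left out, and without the trend (adjusted p from 0.0635 to 0.184). SPX1 had a phr3 difference of -0.08 (adjusted p = 0.741), beside 0.01 for SPX2.

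In the triple mutant 8 of the 17 phosphate genes fell and 4 rose against WT, where 21.0% of all probe sets fell and 20.5% rose. Those that fell were SPX1, SPX3, SPX5, PHO1-2, PHO1-3, PT4, MGD2 and MGD3. SPX4, PT1, PT8 and AOX1a rose. Without phr123 replicate 1 the counts were again 8 and 4, beside 19.7% and 18.3% of all probe sets. The counts take the brightest probe set of each gene over the 12 arrays, and for PT1, PHO1-2 and SPX4 another probe set gave another result. That of PT1 fell from 2454 ± 394.7 to 397.5 ± 179.2 (mean ± SD, n = 3, limma adjusted p = 5.03e-07), so the direction of PT1 is unsettled. It was the brighter PT1 probe set in WT, where the counted one had a mean of 1520. The counted one was brighter over the 12 arrays through phr123, with a mean of 3974 there, so the rise of PT1 rests on that choice. The other probe set of PHO1-2 had a difference from WT of 0.02 (adjusted p = 0.927), and that of SPX4 had -0.29 (adjusted p = 0.558). The calls of PHO1-2 and SPX4 thus rest on 1 probe set each. SPX1 had -2.76 (limma adjusted p = 9.5e-12), the same to 2 decimals as SPX2, SPX3 had -4.72 (adjusted p = 1.27e-08) and MGD2 had -5.16 (adjusted p = 1.14e-11). The phr123 signals of SPX3 were 57, 34.3 and 75.7, where the reporter level was 54.8, 69.2 and 71.9. The depth of its fall is therefore uncertain. SPX5 was at least 43.5-fold lower, its phr123 arrays all lying under the reporter level (adjusted p = 4.33e-07). The SPX4 signal (mean ± SD, n = 3) was 650 ± 44.2 in WT and 936 ± 145 in phr123, a difference of 0.52 (adjusted p = 0.025), a call that was lost when WT replicate 1 or 3, or phr123 replicate 2 or 3, was left out (adjusted p 0.0622 to 0.108).

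**Figure D3:**
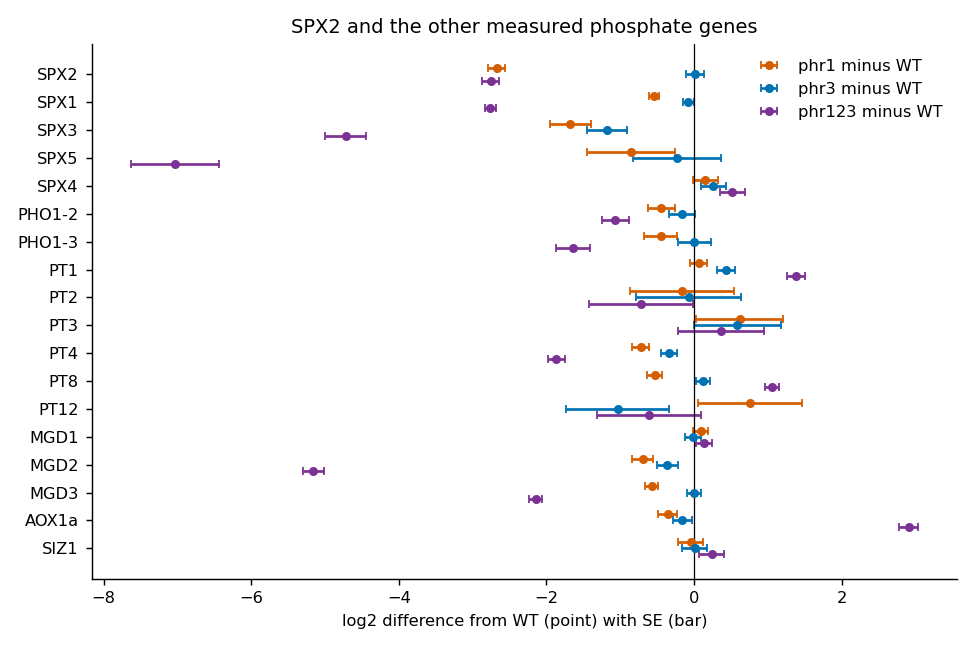
Points give the log2 difference from WT of SPX2 and of the 17 other measured phosphate genes in phr1, phr3 and phr123, and bars give the SE. For SPX2 the phr1 and phr123 points lie together (-2.67 and -2.76), while for SPX1, SPX3, SPX5, MGD2 and MGD3 the phr123 point lies far lower than the phr1 point.

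The step from phr1 to phr123 was tested for the other phosphate genes directly. Between these genotypes 8 of 17 genes were lower in phr123 and 3 were higher, where 22.0% of all probe sets were lower and 20.8% higher. Without phr123 replicate 1 there were 8 and 4 genes, beside 20.4% and 18.5% of all probe sets. SPX1 was lower by a log2 difference of -2.22 (SE 0.0735, limma adjusted p = 9.82e-11), SPX3 by -3.05 (adjusted p = 8.07e-07) and MGD2 by -4.46 (adjusted p = 7.02e-11). The size for SPX3 is uncertain here too, as its phr123 signals lay near the reporter level. SPX2 had -0.08 in the same contrast. SPX5 was at least 24-fold lower in phr123 than in phr1 (adjusted p = 1.6e-06).

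PHO1-3, a member of the PHO1 family of SPX proteins that export phosphate, was lower by -1.19 (limma adjusted p = 0.000679). Its relative PHO1-2 was lower by -0.62 (adjusted p = 0.0128), a call that ended without phr1 replicate 3 (0.063) and with arrays centred on their medians (0.254). Its other probe set had a difference of 0.09 (adjusted p = 0.629). PT4 was lower by -1.14 (adjusted p = 1.84e-06) and MGD3 by -1.58 (adjusted p = 1.15e-08). The genes that were higher in phr123 than in phr1 were PT8 (1.59, adjusted p = 1.79e-08), PT1 (1.32, adjusted p = 7.94e-07) and AOX1a (3.26, adjusted p = 4.19e-10), which codes for a mitochondrial alternative oxidase. For PT1 the other probe set went the other way, though it was the brighter one in phr1 (mean 1645.8 against 1586.5). It had 1560.7 to 1723.3 on the phr1 arrays and 273.6 to 603 on the phr123 arrays, and passed as lower (adjusted p = 5.05e-06).

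The genes with no call between phr1 and phr123 were SPX4 (0.37, limma adjusted p = 0.0996), MGD1 (0.05, adjusted p = 0.767), SIZ1 (0.28, adjusted p = 0.209), PT2, PT3 and PT12. Of these, SPX4 passed without phr123 replicate 1 (0.0484) and with median centring (0.012), SIZ1 without phr1 replicate 3 (0.033) and with median centring (0.0454), and PT12 without phr3 replicate 3 (0.036) and when phr1 and phr123 were fitted on their own (0.0416). MGD1, whose product makes the bulk galactolipid of chloroplast membranes, also had a difference from WT near 0 in both genotypes, 0.09 in phr1 and 0.13 in phr123. In phr1 the differences of MGD1 and SPX4 turned negative with median centring (-0.11 and -0.04). Beside these genes, SPX2 had a large phr1 difference from WT and a difference between phr123 and phr1 whose interval spanned 0 (-0.34 to 0.17). It was chosen by its signal on these arrays, so this is a description.

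The phr3 arrays gave a second reference for these genes. In phr123 8 of the 17 genes were lower than in phr3 and 3 were higher, where 21.9% and 19.1% of all probe sets were. The median difference was -0.65. Without phr123 replicate 1 there were again 8 and 3 genes, beside 20.3% and 16.8% of all probe sets, with a median of -0.47. The 3 higher genes included PT1, whose other probe set was lower in phr123 than in phr3 (-2.39, limma adjusted p = 1.9e-06). In phr1 3 of the 17 were lower than in phr3 and 0 higher, where 0.997% and 0.678% of all probe sets were. The median of the 17 was -0.34. At an unadjusted limma p under 0.05, 6 were lower and 1 higher, with no share of all probe sets counted at that threshold. SPX2 differed from phr3 by -2.77 in phr123 (interval -3.02 to -2.52, and -2.85 without phr123 replicate 1) and by -2.69 in phr1 (interval -2.94 to -2.43).

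Likeness to SPX2 was measured over the 12 arrays, as the root mean square distance in log2 signal after each probe set's mean was set to 0. The nearest of 28596 probe sets was Os.52360.1.S1_at, which has no gene name, at 0.58. Its signals were 883.5, 618.9 and 725.2 in WT, 238.1, 106.5 and 179 in phr1, 410, 423.5 and 432.5 in phr3, and 101.6, 80.9 and 154 in phr123. It was low in phr1 and phr123 as SPX2 was, but its phr3 arrays all lay under its WT arrays, which those of SPX2 did not. The median distance was 1.42, a probe set with no variation at all would stand at 1.37, and 158 probe sets (0.553%) lay within 1.

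Among probe sets with 1 gene the nearest was LOC4338539 at 0.76, with differences from WT of -1.18 in phr1 and -0.01 in phr3. Its phr123 signals, 26.6, 21.9 and 64.3, all lay under the reporter level, at least 2.01-fold lower than in WT. Then came LOC4347989 and LOC4343380 at 0.82, APR-like1 at 0.84, whose product resembles a sulfate-reducing enzyme, and LOC4327664 at 0.86. LOC4332597 at 0.87, MGD3 and LOC4329752 at 0.88, and HS1, a heat stress factor gene, and LOC4342482 at 0.89 completed the nearest 10. LOC4347989 had -2.31 in phr1 but also -1.17 in phr3, and in phr123 it lay under the reporter level on every array, at least 5.07-fold lower than in WT. LOC4343380 had -0.86 in phr1, 0.45 in phr3 and -1.02 in phr123, and so shared the order of the genotypes at a smaller size. MGD3 had -0.57 in phr1 and -2.15 in phr123, which is the pattern of SPX1, at rank 49 with 0.94.

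**Figure D4:**
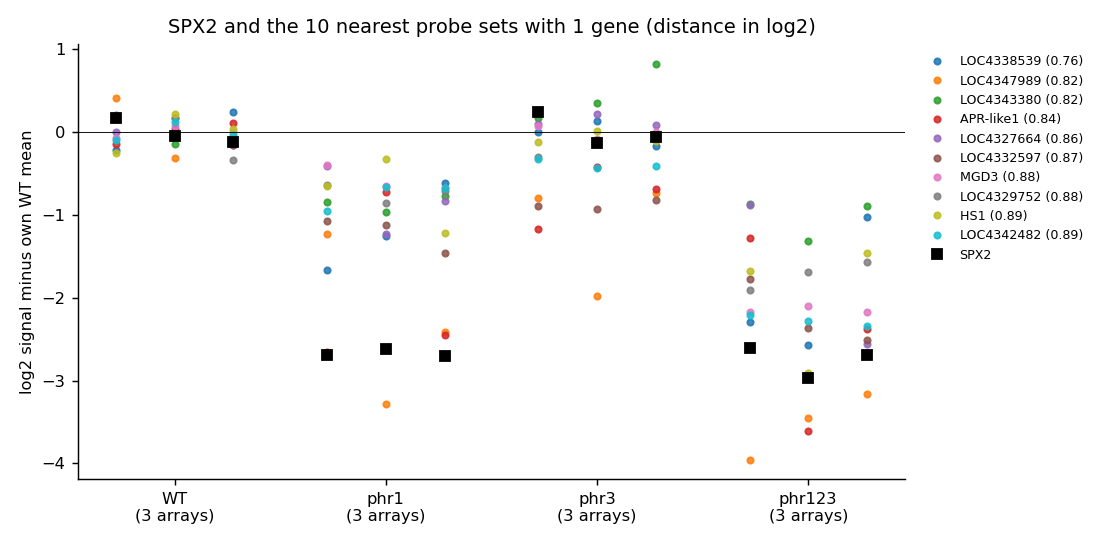
Points give the log2 signal of each of the 10 nearest named probe sets on each array, relative to its own WT mean, and black squares give SPX2. SPX2 has about the same level in phr1 and phr123, and LOC4343380 nearly so (-0.86 and -1.02 from WT). Most of the others lie between WT and their phr123 level in phr1, with phr1 differences as small as -0.57 for MGD3. The phr123 points of LOC4338539 and LOC4347989, and some of those of APR-like1, LOC4327664 and HS1, lie under the reporter level, so their depth is uncertain.

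For 8 of these genes at least 1 phr123 array exceeded the reporter level. Over those 8 the log2 difference between phr123 and phr1 ran from -1.58 to -0.16, against -0.08 for SPX2. Among them, APR-like1 and LOC4327664 still lay under that level on phr123 replicates 2 and 3, and HS1 on phr123 replicate 2. In phr1, APR-like1 lay under it on replicates 1 and 3, LOC4338539 on 1 and 2, and LOC4347989 on 2 and 3. The sizes for these genes are therefore uncertain. Over all 10 the phr1 difference from WT ran from -2.31 to -0.57, against -2.67. The phr1 and phr123 arrays overlapped, as those of SPX2 did, for LOC4343380 (-0.16), APR-like1 (-0.48), LOC4327664 (-1.30), LOC4338539 and LOC4347989. They also overlapped for Os.52360.1.S1_at, the nearest probe set of all (-0.61). For the rest of the 10, all phr123 arrays lay under all phr1 arrays. The share of all probe sets without overlap was not counted, while 22% passed the limma test as lower in phr123 than in phr1. The 10 were chosen by their distance on these same arrays, so this split is a description. The list of 10 was sensitive to single arrays. It shared 4 genes with the list made without phr1 replicate 1 and 4 with that made without phr1 replicate 3. It shared 6 without phr1 replicate 2, 5 without phr3 replicate 2 and 6 without phr123 replicate 2, and 5 when the brightest 25% of probe sets were used.

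The genes beside SPX2 on its chromosome were read to see whether the whole stretch was low. In phr1, 0 of the 10 nearest measured genes, 5 on each side, passed the limma test, where 0.934% of all probe sets did, and their differences from WT ran from -0.24 to 1.44. At an unadjusted p under 0.05, 1 was higher and 0 lower, with no share of all probe sets counted at that threshold. The gene directly before SPX2, LOC4328652, had 501 ± 131 in WT and 533 ± 70.0 in phr1 (mean ± SD, n = 3, difference 0.12, adjusted p = 0.899). The gene directly after it, LOC4328655, had 42.3 ± 29.2 in WT and 97.2 ± 9.85 in phr1, signals near the reporter level (difference 1.44, adjusted p = 0.436). Neither adjoining gene passed the test in phr123 either (adjusted p = 0.519 and 0.686).

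In phr3 again 0 of the 10 passed by limma, where 1.99% of all probe sets did. At an unadjusted p under 0.05, 2 were higher, again with no share of all probe sets counted. Between phr1 and phr3, 0 of 10 passed, where 1.68% of all probe sets did by the adjusted test, and 0 of 10 passed unadjusted. In phr123 LOC4328646 (-1.34, limma adjusted p = 0.00013), LOC4328647 (-0.24, adjusted p = 0.0413) and LOC4328657 (-0.36, adjusted p = 0.022) fell, and LOC4328658 (0.64, adjusted p = 0.00047) and LOC4328666 (0.89, adjusted p = 4.47e-06) rose. That made 5 of 10, beside 41.5% of all probe sets, and 3 without WT replicate 1, WT replicate 3, phr123 replicate 1 or phr123 replicate 2. The lowest of them, LOC4328646, had signals (mean ± SD, n = 3) of 756 ± 233 in WT, 667 ± 127 in phr1 and 289 ± 21.2 in phr123. Against phr3, 4 of the 10 passed in phr123, where 41% of all probe sets did. Without phr123 replicate 1 it was 2 of 10, where 20.3% of all probe sets were lower and 16.8% higher. LOC4328646 stood with 8 genes between it and SPX2, and no measured gene among those had a difference as large in any mutant.

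**Figure D5:**
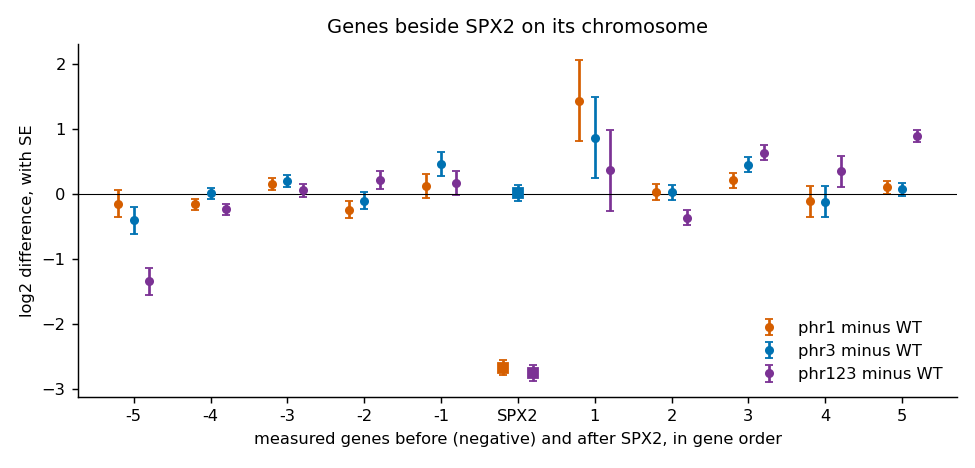
Points give the log2 difference from WT, with SE bars, of SPX2 (squares) and of the 5 nearest measured genes on each side of it, in gene order, for phr1, phr3 and phr123. SPX2 stands at -2.67 in phr1 and -2.76 in phr123, and the other genes lie between -1.34 and 1.44.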

How the data were processed

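Each deposited column holds 1 linear signal intensity per probe set for 1 array, which the authors made with MAS5 per the submitters' processing notes, with no version stated. No aligner or genome build applies. Control probe sets (123 AFFX and 64 reporter) were left out of the tests, and the 8 values of 0 were set to 0.1. Signals were taken to log2 without further scaling, and probe sets with a mean log2 signal at or above the median (a signal of 49.4) were kept. In R 4.3.3, limma 3.58.1 fitted 1 mean per genotype over all 12 arrays (8 residual degrees of freedom), with eBayes and a mean-variance trend; calls need a Benjamini-Hochberg adjusted p under 0.05 over all 28597 probe sets. A change is written "at least N-fold", against the reporter level, where no array of the dimmer genotype exceeded that level; 3 reporter probe sets with signal in phr123 were left out of it after that was seen. The number of arrays limits the precision.

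Names came from the array annotation, with 1 gene for 22436 probe sets, several for 95 and none for 34663, and the 17905 genes all matched the RefSeq table of ASM3414082v1, used for symbols and gene order. The brightest probe set stood for its gene. SPX2, the lists and the rule for named genes were chosen with earlier results of these data known. The rule took SPX2, measured genes of the phosphate lists, the 5 probe sets with 1 gene on each side of SPX2 in each ranking, the 10 nearest by distance and 5 measured genes on each side on the chromosome. Of 8 SPX and PHO1 genes listed, 6 were measured, of 12 PHT1 genes 6, of 3 MGD genes 3, and AOX1a and SIZ1. Others of the rule were not analysed here. Alternatives were other scalings, filters, moderations, a replicate block and leaving out each array.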

Additional observations from a re-analysis of the deposited data

How the results depend on the processing

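In the 6 comparisons between genotypes, no call of a phosphate or PHR gene turned its sign in any alternative run. Of the results of these genes over all alternatives, 2421 kept their side of the threshold, 44 lost a call and 19 gained one. With arrays centred on their medians, the median of all probe sets moved to -0.18 in phr1 and 0.11 in phr123, and the SPX2 differences were -2.87 for phr1 against WT, 0.21 for phr123 against phr1 and -2.60 for phr123 against phr3. The count of called probe sets was 298 in phr3 and 278 between phr1 and phr3 with median centring. Without the trend it was 121 in phr1, 299 in phr3 and 169 between phr1 and phr3, and in a fit of phr1 and phr3 alone it was 294. Leaving out 1 array gave 127 to 384 calls in phr1 against 267, 334 to 718 in phr3 against 569, and 160 to 579 between phr1 and phr3 against 479.

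The SPX2 rank in phr1 was 2 with a pseudocount of 16, 2 among the brightest 25% and 461 with no filter, and 10 to 26 when 1 array was left out. In phr3 it was 27940 with no filter, 7576 among the brightest 25% and 9511 to 18616 with 1 array left out. In phr123 it was 1183 with no filter and 211 among the brightest 25%. These filters change the number of probe sets ranked. The list of the 10 most like SPX2 shared 5 genes among the brightest 25% and 4 to 9 with 1 array left out.

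Alternatives for the chromosome neighbours were chosen after seeing the data. Their called count in phr3 was 1 among the brightest 25%. In phr123 against WT it was 3 with median centring, 3 without the trend and 3 to 5 with 1 array left out. It was 3 to 5 for phr123 against phr1 and 2 to 5 for phr123 against phr3 with 1 array left out. Beyond what the construction of a filter shows, the cause of these shifts was not tested.

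Same-numbered arrays of different genotypes did not deviate together (r from -0.05 to 0.03 in 18 pairs, 0 of them over 0.1, and 1 of 12 arrays closest to its own number). Whether same-numbered samples were handled together is not known here. With the replicate block the SPX2 differences stayed at -2.67, 0.01 and -2.76, and the called counts were 235 in phr1, 502 in phr3 and 11600 in phr123. The block changed none of the calls of the phosphate and PHR genes in the 6 comparisons.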
